A study of Mus musculus with 4 samples.

Results

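The chemokine genes Ccl2, Ccl5, Ccl7, Ccl20, Cxcl1, Cxcl2, Cxcl5, Cxcl10, Cxcl16 and Cx3cl1 were read in RNA sequencing of 3D-cultured mouse mammary epithelial cells. They were found by gene symbol and are 10 of the 54446 genes in the deposited table. They had been selected on values from these same libraries, so every value here is a description and no test of them was made. The 4 libraries came from wild type C57BL/6 mammary gland, 1 library for each condition. They were labelled basal with DMSO, basal with 100 μM baicalin, luminal with DMSO, and luminal with 100 μM baicalin. Baicalin is a flavonoid glucuronide of Scutellaria root. The control medium held DMSO, whereas the study's methods name saline as the solvent of baicalin. Whether the baicalin cultures also held DMSO is not given in the sources used here. Cells were depleted by flow cytometry of those bearing CD31, CD45 or TER119, sorted on CD24 and CD29, and grown in growth factor-reduced Matrigel under medium with EGF and insulin-transferrin-selenium. The study's methods describe donors as female mice, 6 to 9 weeks old and virgin or at other stages, and count colonies after 6 to 7 days of culture. Which age, stage and day applied to these libraries, and how many mice were pooled, is not given in the sources used here. The sort did not use a fibroblast antigen.

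Chemokines are small secreted proteins that steer leukocytes through G protein-coupled receptors, and epithelial cells release them when cytokines, microbial products or interferons reach them. They are named by the spacing of the first cysteines of the mature protein. In CC chemokines these cysteines are adjacent, in CXC chemokines 1 residue lies between them, and in CX3C chemokines 3 residues do. CXC chemokines with a glutamate-leucine-arginine (ELR) motif in front of the cysteines bind CXCR2 and draw neutrophils, whereas Cxcl10 lacks it and binds CXCR3 on T cells. In the mammary gland, macrophages attracted by such signals surround growing ducts.

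The coding stretches that place each gene in its class are shown so that members can be compared by type. They were read from the GENCODE mouse release M21 transcripts, 5′ to 3′, with the codons of the first conserved cysteines in capitals and, in Cxcl1, Cxcl2 and Cxcl5, the ELR codons as well.
Ccl2: ccactcaccTGCTGCtactca
Ccl5: accactcccTGCTGCtttgcc
Ccl7: gcatccacaTGCTGCtatgtc
Ccl20: aactacgacTGTTGCctctcg
Cxcl1: GAGCTGCGCTGTcagTGCctgcag
Cxcl2: GAACTGCGCTGTcaaTGCctgaag
Cxcl5: GAGCTGCGTTGTgttTGCttaacc
Cxcl10: acggtccgcTGCaacTGCatccat
Cxcl16: gctggaagtTGTtctTGTgatcgt
Cx3cl1: atgacgaaaTGCgaaatcatgTGCgacaag
Ccl2, Ccl5, Ccl7 and Ccl20 have 0 residues between the cysteines, the Cxcl genes have 1 and Cx3cl1 has 3. Cxcl16 and Cx3cl1 are made as membrane proteins with a mucin-like stalk, and their coding sequences translate to 246 and 395 residues, against 91 to 148 for the other 8.

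Promoters of 5 members (Ccl20, Cxcl1, Cxcl2, Cxcl10 and Cx3cl1) were matched in a RefSeq table of build GRCm38.p6, as windows of 300 bases around a transcription start. Stretches of 190 bases, from -220 to -31 relative to the start, are printed for the 4 that held a match to the NF-kB motif. That motif was read as GGRRNNYYCC, where R is A or G, Y is C or T and N is any base. NF-kB, the factor that inflammatory cytokines activate, binds sites of this form. The capitals mark that motif and, in Cxcl10, the letters GAAANNGAA, a core of the interferon-stimulated response element. Cxcl1 lies at chr5:90891025-90891214, plus strand, Cxcl2 at chr5:90903679-90903868, plus strand, Cxcl10 at chr5:92348920-92349109, minus strand, and Ccl20 at chr1:83116546-83116735, plus strand.
Cxcl1: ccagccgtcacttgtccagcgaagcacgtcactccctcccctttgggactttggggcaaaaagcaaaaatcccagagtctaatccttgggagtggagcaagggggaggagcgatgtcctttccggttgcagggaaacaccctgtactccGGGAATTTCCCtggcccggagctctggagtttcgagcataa
Cxcl2: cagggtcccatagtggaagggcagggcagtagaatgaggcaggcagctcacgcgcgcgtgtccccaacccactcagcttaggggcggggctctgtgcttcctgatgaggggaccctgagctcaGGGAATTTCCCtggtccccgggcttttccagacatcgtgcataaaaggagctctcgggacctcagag
Cxcl10: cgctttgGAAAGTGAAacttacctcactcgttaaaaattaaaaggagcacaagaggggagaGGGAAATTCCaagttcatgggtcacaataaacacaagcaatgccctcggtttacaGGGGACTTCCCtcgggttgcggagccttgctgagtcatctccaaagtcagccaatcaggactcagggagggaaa
Ccl20: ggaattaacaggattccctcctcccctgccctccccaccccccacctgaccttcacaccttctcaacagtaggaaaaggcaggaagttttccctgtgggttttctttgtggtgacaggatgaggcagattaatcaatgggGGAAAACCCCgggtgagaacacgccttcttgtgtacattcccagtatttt
Cxcl1 and Cxcl2 carry the same 11 capital letters, GGGAATTTCCC, in which 2 matches overlap. Both strands were searched. The NF-kB motif was in 11.2% of all 32851 promoter windows of 300 bases in the table, and GAAANNGAA was in 8.56%. The AP-1 letters TGANTCA were in 7.81% of all windows and in 1 of the 5 members, Cxcl10, at positions -74 to -68. No match of the 3 motifs was found in the Cx3cl1 window. A match describes the letters alone.

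Levels are given as FPKM, counted fragments scaled by exon length and library size, so that genes can be compared with each other. The smallest steps between values, once scaled by length, were worth 1 fragment, and they put 19355913 to 20648798 fragments behind each library. The 95% intervals of ratios of FPKM were computed from these fragments by the exact Clopper-Pearson method and cover counting error only, since there are no replicates. Changes are log2 ratios with 1 FPKM added to each value, and a change is called when it exceeds 1 on that scale. All 10 members had an FPKM above 0 in all 4 libraries, as did 17787 of the 54446 genes, and these 17787 are the background for each count. A gene at 0 had no counted fragment. A count of 0 still allows an expected count of up to 3 fragments, which is 0.145 to 0.155 FPKM for 1 kb of exon.

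The basal markers and keratins do not follow the labels. All 10 basal cell markers were higher in the libraries labelled luminal than in those labelled basal, under DMSO and under baicalin. By sign, 52.5% and 45.2% of all genes were. Krt5, a basal keratin, had 128 and 3.01 FPKM in the DMSO and baicalin libraries labelled basal, and 2015 and 2415 FPKM in those labelled luminal. Krt8, a luminal keratin, had 1573 and 754 FPKM under the basal label and 383 and 324 FPKM under the luminal label. The luminal markers were mixed. Under DMSO 11 of 15 were lower in the library labelled luminal, beside 47.5% of all genes, and 4 were higher, beside 52.5%. Past the called size of 1 (log2), 7 were lower, beside 3.86%, and 3 were higher, beside 4.71%. The 4 that ran with the label were Foxa1 (9.30 against 1.80 FPKM), Pgr (4.81 against 1.08), Gata3 (37.2 against 18.04) and Esr1 (1.44 against 0.992), which encode transcription factors and hormone receptors of luminal cells. Under baicalin 12 of 15 were lower under the luminal label, beside 54.8% of all genes. The labels are therefore used as names of libraries, and label, cell type and culture cannot be told apart. Nor can fewer cells of a type and less RNA per cell be told apart in bulk RNA.

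Markers of other cell types were low, but some moved with the chemokines. Of 17 immune cell markers, 4 were at 0 in all 4 libraries, the T cell marker Cd3g among them, and Ptprc, which encodes the leukocyte antigen CD45, lay between 0 and 0.0138 FPKM. The summed immune list was 19.7 and 56.3 FPKM in the DMSO and baicalin libraries labelled basal, and 6.61 and 23.1 FPKM in those labelled luminal. Cd68, a lysosomal protein of macrophages that other cells also express, made up 51.5 of the 56.3 FPKM. Lyz2, the lysozyme of myeloid cells, had 8.84 and 2.17 FPKM under the basal label and 0.903 and 2.61 FPKM under the luminal label, the same directions as Ccl2. S100a8, a calcium-binding protein of neutrophils and stressed epithelium, had 1.52 and 1.35 FPKM under the basal label and 0.521 and 5.02 FPKM under the luminal label. Of the 7 immune markers above 0 in all libraries, 5 were lower with baicalin under the basal label, beside 49.1% of all genes. Of the same 7, 6 were higher under the luminal label, beside 45.6%. The fibroblast markers also went in these directions. Of 10, 8 were lower under the basal label and 9 higher under the luminal label, and 8 did both, beside 17.7% of all genes. Some counts were small, as for Dpt with 6 and 2 fragments under the basal label and 1 and 2 under the luminal label. Past the called size of 1 (log2), 0 of the 10 were called under the basal label, beside 2.15% higher and 3.33% lower of all genes. Under the luminal label 0 were called higher and 1 lower, beside 2.37% and 1.59%. Pdgfra, a growth factor receptor of fibroblasts, was the exception under the luminal label, with 6.30 and 1.67 FPKM. The 10 fibroblast markers summed to 7.95, 3.39, 11.8 and 10.5 FPKM and the 10 endothelial markers to 1.49, 2.23, 4.81 and 6.23 FPKM, in the order basal DMSO, basal baicalin, luminal DMSO and luminal baicalin, with no marker of either list at 0. Of the endothelial markers, 8 were higher with baicalin under the basal label, beside 50.9% of all genes, and 9 under the luminal label, beside 45.6%. The part of these cells in the chemokine values was not tested.

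Under DMSO, 9 of the 10 chemokines were lower under the luminal label than under the basal label, beside 47.5% of all genes. With baicalin, 8 of 10 were lower than with DMSO under the basal label, beside 49.1% of all genes. Under the luminal label 8 of 10 were higher with baicalin, beside 45.6%. The levels under the 2 labels were closer with baicalin. Without a replicate these are differences between single libraries. Summed over the 10 genes, the level under the basal label was 384 FPKM with DMSO and 292 FPKM with baicalin. Under the luminal label the sum was 146 FPKM with DMSO and 259 FPKM with baicalin. These 10 genes held 97.2%, 98.5%, 79.2% and 92.4% of the FPKM of all 38 chemokine ligands listed, in the order basal DMSO, basal baicalin, luminal DMSO and luminal baicalin.

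**Figure D1:**
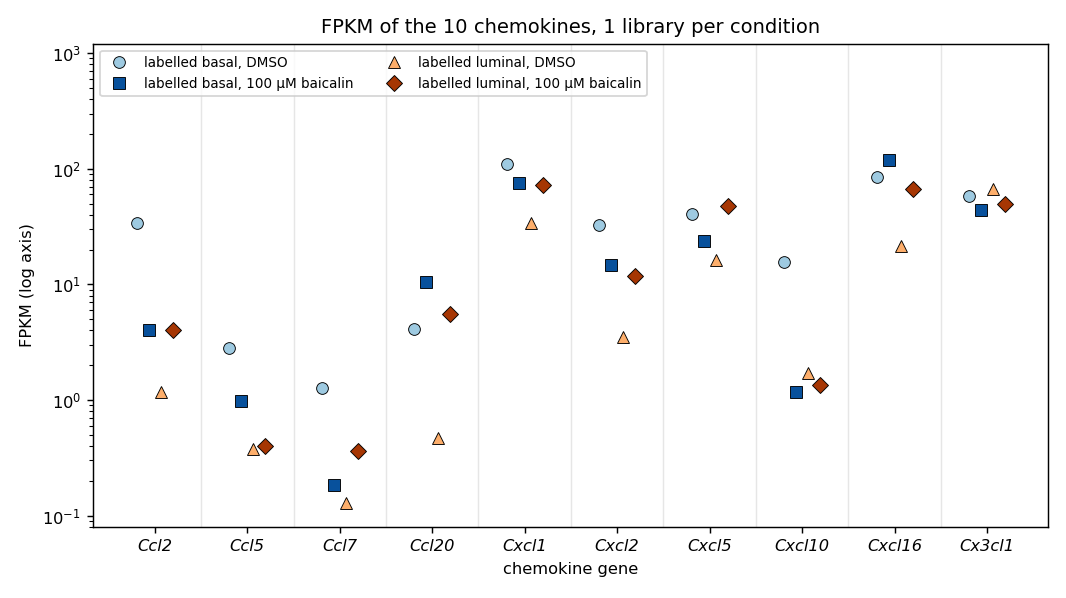
FPKM on a log axis of the 10 chemokines in the 4 libraries, each point 1 library. The DMSO library labelled luminal is the lowest of the 4 for 8 genes, all but Cxcl10 and Cx3cl1.

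Cxcl1, Cxcl2 and Cxcl5, the ELR chemokines that recruit neutrophils, were lower with baicalin under the basal label and higher under the luminal label. Cxcl1 (ENSMUSG00000029380, GRCm38 chr5:90891241-90893115) had 110 FPKM with DMSO and 75.0 FPKM with baicalin in the libraries labelled basal, and 33.8 and 72.1 FPKM in those labelled luminal. The DMSO libraries lie at the ends of this range and the baicalin libraries almost together inside it. The FPKM ratio of baicalin to DMSO was 0.681 (95% interval 0.649 to 0.714) under the basal label and 2.14 (2.0 to 2.29) under the luminal label.

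Cxcl2 (ENSMUSG00000058427, chr5:90903871-90905938) lies 10.8 kb from Cxcl1. Its levels were 32.5 and 14.6 FPKM with DMSO and baicalin under the basal label, and 3.52 and 11.9 FPKM under the luminal label. It shows the same order of libraries as Cxcl1, over a wider range. The ratios were 0.448 (0.407 to 0.494) and 3.37 (2.79 to 4.09). Cxcl2 shares 116 transcript bases at 98.3% identity with Cxcl3, whose level was at most 1.90 FPKM, so a few fragments could be assigned to either gene.

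Cxcl5 (ENSMUSG00000029371, chr5:90759360-90761624), an ELR chemokine produced by epithelial cells, had 40.7 and 23.5 FPKM under the basal label and 16.4 and 47.8 FPKM under the luminal label. Here the baicalin library labelled luminal was the highest of the 4, unlike for Cxcl1 and Cxcl2. The ratios were 0.577 (0.530 to 0.627) and 2.92 (2.66 to 3.21). A stretch of 100 bases of its transcript is 97.0% identical to one in Mlh3. Together the 3 ELR genes summed to 183 and 113 FPKM under the basal label and to 53.7 and 132 FPKM under the luminal label.

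Of the CC chemokines, Ccl2 and Ccl7, which attract monocytes through CCR2, had the same directions, and Ccl2 had the widest range of all 10 genes. Ccl2 (ENSMUSG00000035385, chr11:82035571-82037453) had 33.6 FPKM with DMSO and 4.03 FPKM with baicalin under the basal label, and 1.18 and 4.04 FPKM under the luminal label. Both baicalin libraries sit at the same level, with 93 and 95 fragments, between a high and a low DMSO library. The ratio was 0.12 (0.0955 to 0.149), an 8.35-fold lower level, under the basal label and 3.42 (2.20 to 5.51) under the luminal label.

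Ccl7 (ENSMUSG00000035373, chr11:82045712-82047525), 8.26 kb from Ccl2, was rare, with 20 and 3 fragments under the basal label and 2 and 6 under the luminal label. These correspond to 1.26, 0.185, 0.129 and 0.363 FPKM. The ratio was 0.147 (0.0279 to 0.495) under the basal label. Under the luminal label it was 2.81 (0.503 to 28.5), so no difference was detectable at this depth. Ccl5 (ENSMUSG00000035042, chr11:83525778-83530518), which attracts T cells and monocytes, had 2.83 and 0.976 FPKM under the basal label, a ratio of 0.344 (0.193 to 0.590). Under the luminal label it had 0.377 and 0.404 FPKM from 7 and 8 fragments, which also shows no detectable difference, with an interval of the ratio from 0.339 to 3.47.

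Ccl20 (ENSMUSG00000026166, chr1:83116766-83119167), the ligand of CCR6 on dendritic cells and certain lymphocytes, went the other way under the basal label. Its levels were 4.08 and 10.4 FPKM under the basal label and 0.473 and 5.52 FPKM under the luminal label. Both baicalin libraries were above both DMSO libraries. The ratio was 2.55 (2.05 to 3.19) under the basal label and 11.7 (6.64 to 22.4) under the luminal label, the latter from 162 against 13 fragments. It is the only member called higher under both labels.

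Cxcl10 (ENSMUSG00000034855, chr5:92346638-92348889), the interferon-inducible ligand of CXCR3, had 1 high library. Its levels were 15.7 FPKM with DMSO and 1.18 FPKM with baicalin under the basal label, and 1.70 and 1.35 FPKM under the luminal label. The ratio was 0.0754 (0.0561 to 0.0995), 13.3-fold lower, under the basal label. Under the luminal label it was 0.798 (0.561 to 1.13), from 63 and 74 fragments. Cxcl10 shares 133 exon bases with Art3 on the opposite strand, whose level was between 0.0376 and 1.31 FPKM and highest in the DMSO library labelled luminal.

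The 2 membrane-anchored chemokines had different patterns. Cxcl16 (ENSMUSG00000018920, chr11:70453983-70459984), which binds CXCR6 and also acts as a scavenger receptor, had 85.4 and 118 FPKM under the basal label and 21.4 and 66.3 FPKM under the luminal label. It was higher with baicalin under both labels, by a ratio of 1.38 (1.33 to 1.43) under the basal label and 3.09 (2.90 to 3.29) under the luminal label. The second change exceeds the called size and the first, 0.46 on the log2 scale, does not. Its exons share 552 bases with Zmynd15 on the opposite strand, whose level was at most 1.01 FPKM. Cx3cl1 (ENSMUSG00000031778, chr8:94772009-94782427), called fractalkine, had 57.8 and 43.8 FPKM under the basal label and 67.3 and 49.2 FPKM under the luminal label. It was the flattest of the 10 genes, with a highest level 1.54 times the lowest. Its ratios were 0.759 (0.726 to 0.793) and 0.731 (0.702 to 0.762). The share of Cxcl16 in the FPKM of all listed chemokine ligands was 21.6% with DMSO and 39.8% with baicalin under the basal label, and 11.6% and 23.6% under the luminal label. Cx3cl1 held 36.4% of that total in the DMSO library labelled luminal and 14.6% to 17.6% in the other 3.

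Counted over the members, under the basal label 1 gene (Ccl20) was called higher with baicalin, beside 2.15% of all genes tested, and 3 (Ccl2, Cxcl2 and Cxcl10) were called lower, beside 3.33% of all genes. Without the added FPKM, Ccl5 and Ccl7 also passed, which made 5 lower, but the share of all genes called in either direction was then 21.1%, against 5.48% with it. Under the luminal label 6 genes (Ccl2, Ccl20, Cxcl1, Cxcl2, Cxcl5 and Cxcl16) were called higher, beside 2.37% of all genes, and 0 lower, beside 1.59%. The median log2 change of the members was -0.85 under the basal label, where the median of all genes was 0.0087, and 1.14 under the luminal label, where it was -0.021. By sign, 6 members were lower under the basal label and higher under the luminal label, as were 17.7% of all genes. For 4 of the 6 (Ccl2, Cxcl1, Cxcl2 and Cxcl5) both intervals excluded a ratio of 1. In 7 members the luminal-labelled log2 change exceeded the basal-labelled one by more than 1, beside 4.41% of all genes. The differences of the changes ran from -0.05 for Cx3cl1 to 3.99 for Ccl2. These differences between labels were not tested, as each rests on 4 single libraries. Nothing is read from the members' counts against the background, since the members were selected with these values known.

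**Figure D2:**
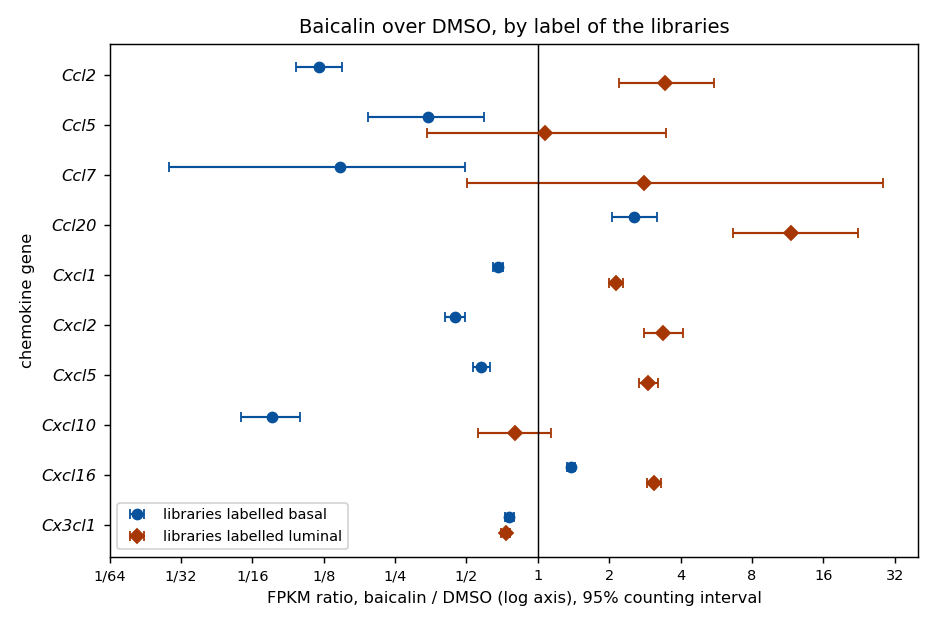
FPKM ratio of baicalin to DMSO for each chemokine on a log axis, circles for the libraries labelled basal and diamonds for those labelled luminal, with 95% counting intervals. The symbols lie on opposite sides of 1 for Ccl2, Ccl5, Ccl7, Cxcl1, Cxcl2 and Cxcl5, both above it for Ccl20 and Cxcl16, and both below it for Cxcl10 and Cx3cl1, with intervals that include 1 for Ccl5, Ccl7 and Cxcl10 under the luminal label.

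The comparison of the labels within a treatment uses the same 4 libraries and shares its DMSO libraries with the values above. Under DMSO, 8 members were called lower in the library labelled luminal, beside 3.86% of all genes, and 0 higher, beside 4.71%. Ccl2 was 28.5-fold lower there (95% interval 19.3 to 43.9), Cxcl10 9.24-fold (7.26 to 11.9), Cxcl2 9.24-fold (7.76 to 11.1) and Cxcl1 3.26-fold (3.06 to 3.48). Ccl7 lay just under the called size at -0.9997 on the log2 scale, with 2 against 20 fragments. Cx3cl1 was the exception, with a ratio of luminal to basal label of 1.16 (1.12 to 1.21). Under baicalin 0 members were called higher and 0 lower, beside 5.24% and 2.99% of all genes. The ratio of luminal to basal label was then 1.0 (0.746 to 1.35) for Ccl2, 0.962 (0.913 to 1.01) for Cxcl1 and 1.15 (0.784 to 1.68) for Cxcl10. These 3 intervals include 1, which leaves differences within those bounds undetectable at this depth. Cxcl5 was higher under the luminal label, with a ratio of 2.03 (1.87 to 2.20), or 0.99 on the log2 scale. Cxcl16 and Ccl20 were still lower there, with ratios of 0.562 (0.541 to 0.584) and 0.530 (0.435 to 0.644). The absolute log2 gap between labels was smaller with baicalin than with DMSO for all 10 members, as it was for 52.7% of all genes. Its median over the members was 1.73 with DMSO and 0.24 with baicalin, and over all genes 0.26 and 0.24.

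**Figure D3:**
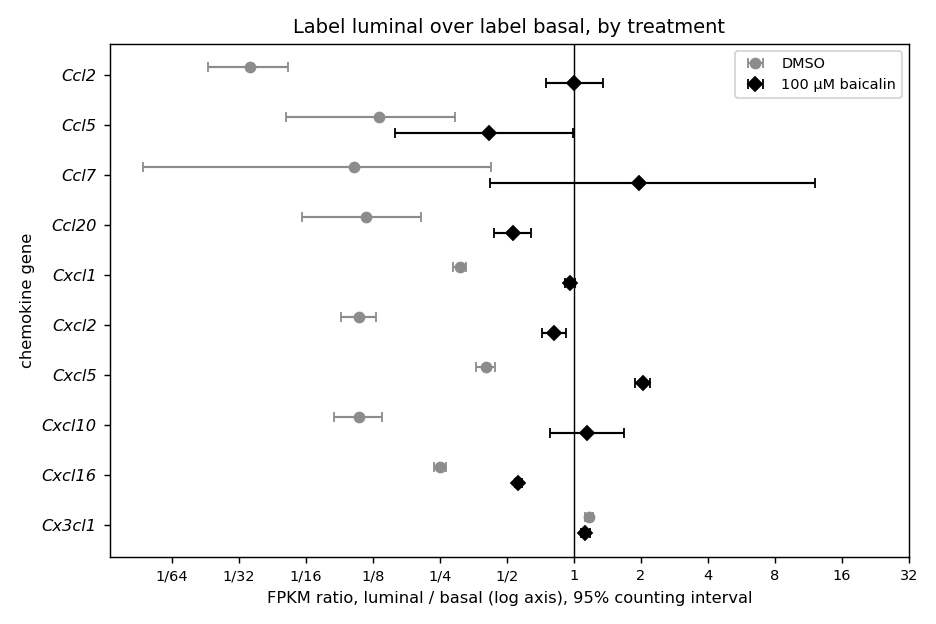
FPKM ratio of the library labelled luminal to the one labelled basal for each chemokine on a log axis, grey circles under DMSO and black diamonds under 100 μM baicalin, with 95% counting intervals. Under DMSO all genes except Cx3cl1 lie left of 1, and under baicalin all 10 lie nearer to 1.

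Of the other chemokine ligands, Cxcl14 and Cxcl12 had the highest levels, both under the luminal label. Of 28 listed, 12 were above 0 in all 4 libraries and 8 were at 0 in every one. Cxcl3, an ELR chemokine closely related to Cxcl2, had 1.90 and 0.211 FPKM under the basal label and 0.0886 and 0.318 FPKM under the luminal label, the same directions as Cxcl2. These values rest on 132 and 15 fragments under the basal label and on 6 and 23 under the luminal label. As Cxcl3 shares near-identical bases with Cxcl2, some of these fragments could be assigned to either gene. Cxcl9, an interferon-inducible ligand of CXCR3 like Cxcl10, had 1.14 and 0.0327 FPKM under the basal label, from 68 and 2 fragments. Under the luminal label it had 0.274 and 0.161 FPKM from 16 and 10 fragments, with an interval of the ratio from 0.238 to 1.37. Cxcl14, a chemokine of resting epithelium, had 2.04 and 0.405 FPKM under the basal label and 23.0 and 6.84 FPKM under the luminal label. With DMSO under the luminal label it was above 8 of the 10 members. Cxcl12, the ligand of Cxcr4, had 0.869 and 0.712 FPKM under the basal label and 5.13 and 7.14 FPKM under the luminal label. Cxcl17, a mucosal chemokine, had 4.55 and 0.255 FPKM in those libraries. Of the 12 ligands, 0 were called higher and 3 lower under the basal label, beside 2.15% and 3.33% of all genes. For the luminal label 1 was called higher and 2 lower, beside 2.37% and 1.59%.

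Receptors for the members were at or near 0. Of 23 chemokine receptors, 3 (Cxcr4, Ackr3 and Ccrl2) were above 0 in all 4 libraries, and 8 were at 0 in every one. Cxcr2, the receptor of the ELR ligands, was at most 0.222 FPKM, and Ccr2 was at 0 in all 4. Cxcr4, which binds Cxcl12, was 12.3 FPKM in the DMSO library labelled luminal and 0.830 FPKM in its baicalin library, a ratio of 0.0674 (0.0452 to 0.0971). Ackr3, a scavenging receptor of Cxcl12, had 1.26 and 0.118 FPKM under the basal label and 6.57 and 2.44 FPKM under the luminal label.

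Genes of the pathways that induce chemokines were read from lists. For 22 NF-kB factors and feedback genes the median log2 change was 0.08 under the basal label. There 0 were called higher and 0 lower, beside 2.15% and 3.33% of all genes. Under the luminal label the median was 0.48, with 20 of 22 higher by sign, beside 45.6% of all genes. Called lower were 0, beside 1.59%, and 3 were called higher, beside 2.37%. These 3 are feedback inhibitors that NF-kB itself induces. Tnfaip3, which encodes the ubiquitin-editing enzyme A20, went from 5.20 to 16.3 FPKM under the luminal label and was 24.9 and 21.4 FPKM under the basal label. Nfkbia, the inhibitor IκBα, went from 51.6 to 114 FPKM and was 150 and 126 FPKM under the basal label. Tnip1, a partner of A20, went from 8.57 to 18.3 FPKM and was 25.2 and 31.8 FPKM under the basal label.

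Among 25 inducing cytokines and receptors, 24 were above 0 in all libraries. Of these, 1 was called higher and 2 lower under the basal label, beside 2.15% and 3.33% of all genes. In the libraries labelled luminal, 5 were called higher and 1 lower, beside 2.37% and 1.59%. Il1a, an alarmin of epithelial cells that induces chemokines, had 39.3 and 13.5 FPKM under the basal label and 1.81 and 18.4 FPKM under the luminal label. Il1rn, which blocks its receptor, had 8.76 and 2.26 FPKM under the basal label and 2.08 and 6.99 FPKM under the luminal label. Both therefore had opposite directions under the 2 labels, as Cxcl1, Cxcl2, Cxcl5 and Ccl2 did. Of the 24 genes, 12 were lower under the basal label and higher under the luminal label, Tnf among them, beside 17.7% of all genes. Tnf had 54.4 and 39.4 FPKM under the basal label and 6.46 and 28.2 FPKM under the luminal label. Il33, an alarmin held in the nucleus, was 35.2 FPKM in the DMSO library labelled luminal and 3.36 FPKM in its baicalin library.

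Of 18 interferon signalling genes, 15 were above 0 in all libraries. Under the basal label 13 of the 15 were lower by sign, beside 49.1% of all genes, and 4 were called lower, beside 3.33%. Of the same 15, 8 were lower by sign under the luminal label, beside 54.4%, and 0 were called in either direction, beside 2.37% and 1.59%. The difference between the labels was not tested. Irf7, a factor that amplifies interferon responses, had 15.3 and 2.30 FPKM under the basal label and 2.49 and 0.975 FPKM under the luminal label. Stat2, part of the interferon-activated complex, had 16.9 and 6.21 FPKM under the basal label and 5.43 and 4.39 FPKM under the luminal label. The high DMSO library labelled basal is the one in which Cxcl10 was high. The genes for interferon beta and lambda were at 0.0672 FPKM or less.

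**Figure D4:**
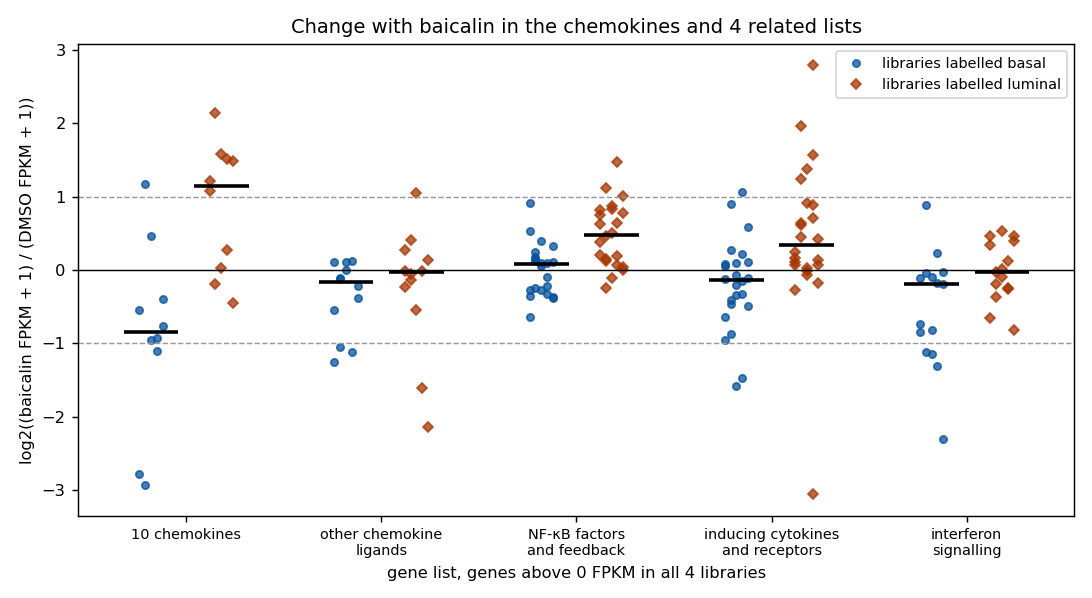
Log2 change with baicalin, with 1 FPKM added, of the 10 chemokines and of 4 related lists, each point a gene above 0 in all 4 libraries, circles for the basal label and diamonds for the luminal label. Bars are medians and dashed lines mark a change of 1. The chemokine medians are -0.85 and 1.14, and the NF-kB medians 0.08 and 0.48.

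RNAs for proteins that release, cut or hold chemokines reached 1 FPKM for 10 of 11 listed genes, all but Dpp4, a protease that trims chemokines, at 0.0307 to 0.147 FPKM. Of the 11, 0 were called under the basal label, beside 2.15% higher and 3.33% lower of all genes, and 1, Timp3, was called higher under the luminal label, beside 2.37%. Adam10 and Adam17, the proteases that release Cx3cl1 and Cxcl16 from the cell surface, lay between 52.4 and 66.7 FPKM and between 17.7 and 23.8 FPKM. Timp3, an inhibitor of Adam17, had 231 and 296 FPKM under the basal label and 134 and 288 FPKM under the luminal label. Sdc1, a heparan sulfate proteoglycan that binds chemokines, had 243 and 129 FPKM under the basal label and 172 and 282 FPKM under the luminal label. Of 7 regulators of chemokine mRNA decay, 0 were called under the basal label, beside 2.15% higher and 3.33% lower of all genes. Under the luminal label 1 was called higher, beside 2.37%, and 0 lower, beside 1.59%. The called gene was Zc3h12a, which encodes the ribonuclease Regnase and went from 6.51 to 14.7 FPKM under the luminal label. It was 14.4 and 11.7 FPKM under the basal label.

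For the 4 members with the highest levels, the genes with the most similar profile over the 4 libraries were sought among 9154 genes that reached 5 FPKM in some library. Similarity was the Euclidean distance between log2 values with 1 FPKM added, each centred on its mean over the 4 libraries. The nearest 3 were Itga3, Sult2b1 and Anxa1 for Cxcl1, at distances of 0.160 to 0.215. Itga3, an integrin chain, had 111 and 75.2 FPKM under the basal label and 31.8 and 63.1 FPKM under the luminal label. For Cxcl5 they were Cadm4, L1cam and Pstpip2, at 0.0900 to 0.276, and for Cxcl16 Cgref1, Gpnmb and Bdkrb2, at 0.218 to 0.308. For Cx3cl1 they were Tspan3, Rap2c and Gm4950, at 0.0326 to 0.0596. With 4 points a profile is shared by many genes, and the likeness is a description.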

How the data were processed

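RNA from 4 libraries was analysed, 1 per condition. The authors selected polyadenylated RNA, built stranded libraries, mapped reads to GRCm38 with HISAT2 and deposited FPKM from featureCounts. The strand setting is not given in the sources used here, so genes overlapping on opposite strands are uncertain. The submitters' processing notes also name Bowtie 0.12.2 and builds mm8 and GRCm38.

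Exon lengths from GENCODE M21 (GRCm38, 54409 genes) turned FPKM into fragments. Of low genes, 98.2% to 98.5% fell within 0.05 of a whole fragment, and all members' values within 0.0533. No test was made with 1 library per condition. The members, the 12 other gene lists (196 entries, all found) and the threshold of 1 were chosen with earlier results of these data known. That threshold follows the log2 fold change in the study's methods, which also required a t-test. Named genes are the members, the 3 largest changes per list and label among genes that reached 1 FPKM, leading markers and nearest profiles. Not all are printed. The pseudocount, scaling, centring, filter and threshold were varied. The steps were tested on simulated data. Values were computed with scipy 1.17.1, numpy 2.4.6 and pandas 2.3.3 under Python 3.11.15, and plots were drawn with matplotlib 3.10.9.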

Additional observations from a re-analysis of the deposited data

Results flagged for a closer look

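Baicalin went with opposite directions under the 2 labels, with both counting intervals clear of a ratio of 1, in 4 chemokines. The luminal-labelled log2 change exceeded the basal-labelled one by 3.99 for Ccl2, by 2.61 for Cxcl2, by 2.26 for Cxcl5 and by 1.62 for Cxcl1. With 1 library per condition these differences were not tested.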

How the results depend on the processing

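With no pseudocount, with 0.1 FPKM or with scaling to TPM, 5 members instead of 3 were called lower with baicalin under the basal label. The share of all genes called in either direction there was 21.1%, 13.6% and 9.55% under these settings, against 5.48%. Under baicalin, 1 member was called higher in the library labelled luminal with no pseudocount, with 0.1 FPKM or with centring on the median, and 1 was called lower with no pseudocount or 0.1 FPKM, where the counts were 0. The share of all genes called in either direction in that comparison was 26.1%, 18.9% and 8.28% with these settings in turn, against 8.23%. With a threshold of 2, 0 members were called higher under the basal label, 1 higher under the luminal label, and 3 lower in the DMSO library labelled luminal. The shares of all genes called in either direction in these comparisons were then 0.973%, 0.596% and 1.88%. All other counts stayed within 1.5 times, the filters on low values included. Of 160 single values under 4 alternatives, 137 moved by less than their counting interval, 23 moved further and 0 called values changed sign. In 1 uncalled value the sign changed, Ccl2 between labels under baicalin, 0.004 and -0.06 with TPM. Among the members, fragment counts under 10, in Ccl5 and Ccl7, limit what could be detected. Of the other ligands described, Cxcl3, Cxcl9 and Cxcl17 had such counts too.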

Other observations

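Nearest profiles of the further members that reached 5 FPKM in a library were read by the same distance. They were chosen after their values were seen. For Cxcl10 they were Ifit3b, Iigp1 and Gbp3, all interferon-inducible genes, at 0.296 to 0.388. Iigp1, an immunity-related GTPase, had 7.47 and 0.205 FPKM under the basal label and 0.762 and 0.186 FPKM under the luminal label. For Ccl2 the nearest were Acod1, which encodes the enzyme that makes itaconate, and the metalloproteinases Mmp13 and Mmp12, at larger distances of 0.590 to 0.930. Acod1 had 12.8 and 0.602 FPKM under the basal label and 0.118 and 0.554 FPKM under the luminal label. For Cxcl2 they were Flnc, Tnf and Emp1, at 0.278 to 0.588, and for Ccl20 n-R5s54, Atf5 and Adm, at 0.198 to 0.426.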
